A study of Mus musculus with 12 samples.

Results

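Usp39, M1ap, Vamp3 and AI506816 are 4 genes without a known antioxidant role whose signal differed strongly between lungs of mice with and without Nrf2, whether or not the mice had been ventilated. They were chosen by the normalized signal difference between genotypes, so that difference is given as a description with no test. They are 4 of 12394 genes that have a probe set of their own on the array, and the platform annotation assigns 9 of its 22626 probe sets (controls left out) to them: 5 to Vamp3, 2 to Usp39, and 1 each to M1ap and AI506816. Only 4 of the 9 carried the genotype step, 1 in each gene. The other Usp39 probe set and the other 4 Vamp3 probe sets had genotypes that overlapped over the 12 arrays.

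The study measured RNA from lungs of CD-1/ICR mice on 12 Murine Genome 430A arrays. Wild-type mice (WT, Nrf2+/+) and knockout mice (KO, Nrf2-/-) either breathed spontaneously (SpV, the controls) or were ventilated mechanically with a high tidal volume (HVT, 30 ml/kg), in both cases for 2 h, with 3 arrays per group. WT SpV array 1 is labelled as whole lung and the remaining 11 as left lobe; the labels give neither the age of the mice nor how the Nrf2 allele was made. Nothing says that arrays of a group came from separate animals, so a p-value here is set against a spread between arrays that could be technical. In whole tissue, fewer cells of a type and less RNA per cell cannot be told apart.

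Usp39 is a protein of the spliceosome: it resembles the enzymes that remove ubiquitin but lacks their activity, and it helps to assemble the complex of small nuclear ribonucleoproteins that joins an intron before splicing. Vamp3, also called cellubrevin, is a SNARE protein on recycling endosomes, where it pairs with syntaxins and SNAP proteins to fuse vesicles with the plasma membrane. M1ap acts in meiosis of male germ cells and is known for its role in sperm formation. AI506816 is listed by RefSeq as a long noncoding RNA, and its function is not known. Nrf2 itself, encoded by Nfe2l2, is a transcription factor that binds antioxidant response elements, short DNA motifs before genes of glutathione synthesis and detoxification.

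The promoter table of RefSeq (GRCm38.p6) matched 2 of the 4 genes, M1ap and AI506816. The 250 bases before the start site are printed because the probe sets of both genes were dim on every KO array. KO lungs lack Nrf2, the factor that binds antioxidant response elements. The M1ap stretch lies at chr6:82946672-82946921 on the plus strand and the AI506816 stretch at chr5:23712668-23712917 on the minus strand, both written 5′ to 3′ in the direction of the gene.

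M1ap: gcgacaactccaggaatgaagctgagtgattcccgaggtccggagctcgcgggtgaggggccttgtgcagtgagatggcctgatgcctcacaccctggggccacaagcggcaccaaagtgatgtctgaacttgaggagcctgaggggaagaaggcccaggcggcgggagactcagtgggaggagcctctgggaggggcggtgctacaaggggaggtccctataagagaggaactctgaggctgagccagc

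AI506816: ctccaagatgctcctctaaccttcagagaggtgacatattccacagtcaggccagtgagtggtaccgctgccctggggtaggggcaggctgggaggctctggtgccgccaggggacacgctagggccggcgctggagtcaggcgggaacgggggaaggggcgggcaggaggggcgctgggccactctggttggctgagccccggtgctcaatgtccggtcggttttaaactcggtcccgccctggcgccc

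The core of the antioxidant response element, TGACNNNGC, was searched on both strands, and a match would have been in capitals. There were 0 matches in either stretch, while 10.2% of the 32851 promoters searched the same way held at least 1. The stretches were 62.4% and 67.2% G and C. A search of these letters in this window says nothing of sites elsewhere.

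Some facts of the arrays bear on all values. Nfe2l2 checked the labels: its normalized signal was 2144.3 to 3298.2 on the 6 WT arrays and 36.2 to 61.3 on the 6 KO arrays. KO SpV array 1 stood apart, with a trimmed mean signal of 73.9 as deposited against 182 to 470 on the others, and actin control probes that were 8.76 times brighter at the 3' end than at the 5' end, against 1.39 to 3.1 times. The tissue carried lung markers throughout, such as Sftpb, a surfactant protein, at 11891.3 to 17012.2 in WT and 13105.5 to 15897.4 in KO. Of 9 lung epithelium markers, 5 were lower and 4 higher in KO, at log2 differences from -1.36 (Ager) to 0.46 (Foxj1). The only 1 called was Pdpn, at -0.80 ± 0.18 (adjusted p = 0.0317). Over all 9333 genes tested, 3.46% were called, 1.92% lower and 1.54% higher in KO. Markers of heart muscle and of endothelium also moved with genotype. Heart muscle markers were called higher in KO in 8 of 9 cases (5 of 9 without WT SpV array 3, WT HVT array 2, KO HVT array 1 or KO HVT array 2, and 0 of 9 without scaling), with summed signals of 27139 to 43736 in WT and 46969 to 70423 in KO. Endothelial markers were called lower in 4 of 8 cases (2 of 8 without any 1 of WT SpV array 2 or 3, WT HVT array 1 or 2, or KO HVT array 1 or 3), with sums of 14550 to 24978 in WT and 7828 to 16811 in KO. None of these 17 heart muscle and endothelial markers was at 0 on any array. The part of the markers in the results below was not tested.

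The 4 stepped probe sets separated the genotypes on all 12 arrays, 3 being lower and 1 higher in KO, where 2.49% of the 15855 probe sets tested did so, 1.34% lower and 1.15% higher. All 4 were past an adjusted p of 0.05 for the averaged genotype difference, as were 3.27% of all (1.85% lower and 1.42% higher), but the rule chose them on this contrast and the counts support nothing. By the size of the averaged difference they ranked the eighth (Usp39), the 11th (M1ap), the 18th (AI506816) and the 64th (Vamp3). The 10 largest steps that were called without overlap were Nfe2l2, Bpifa1, Ces1g, Ces1f, the probe set 1455869_at that has no gene name here, Reg3g, Usp39, Zfp24, Ltf and M1ap. Ces1g and Ces1f are carboxylesterases, Bpifa1, Reg3g and Ltf are secreted defence proteins, and Zfp24 is a zinc finger protein. The rule states no threshold, so no members lie just inside or outside one.

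**Figure D1:**
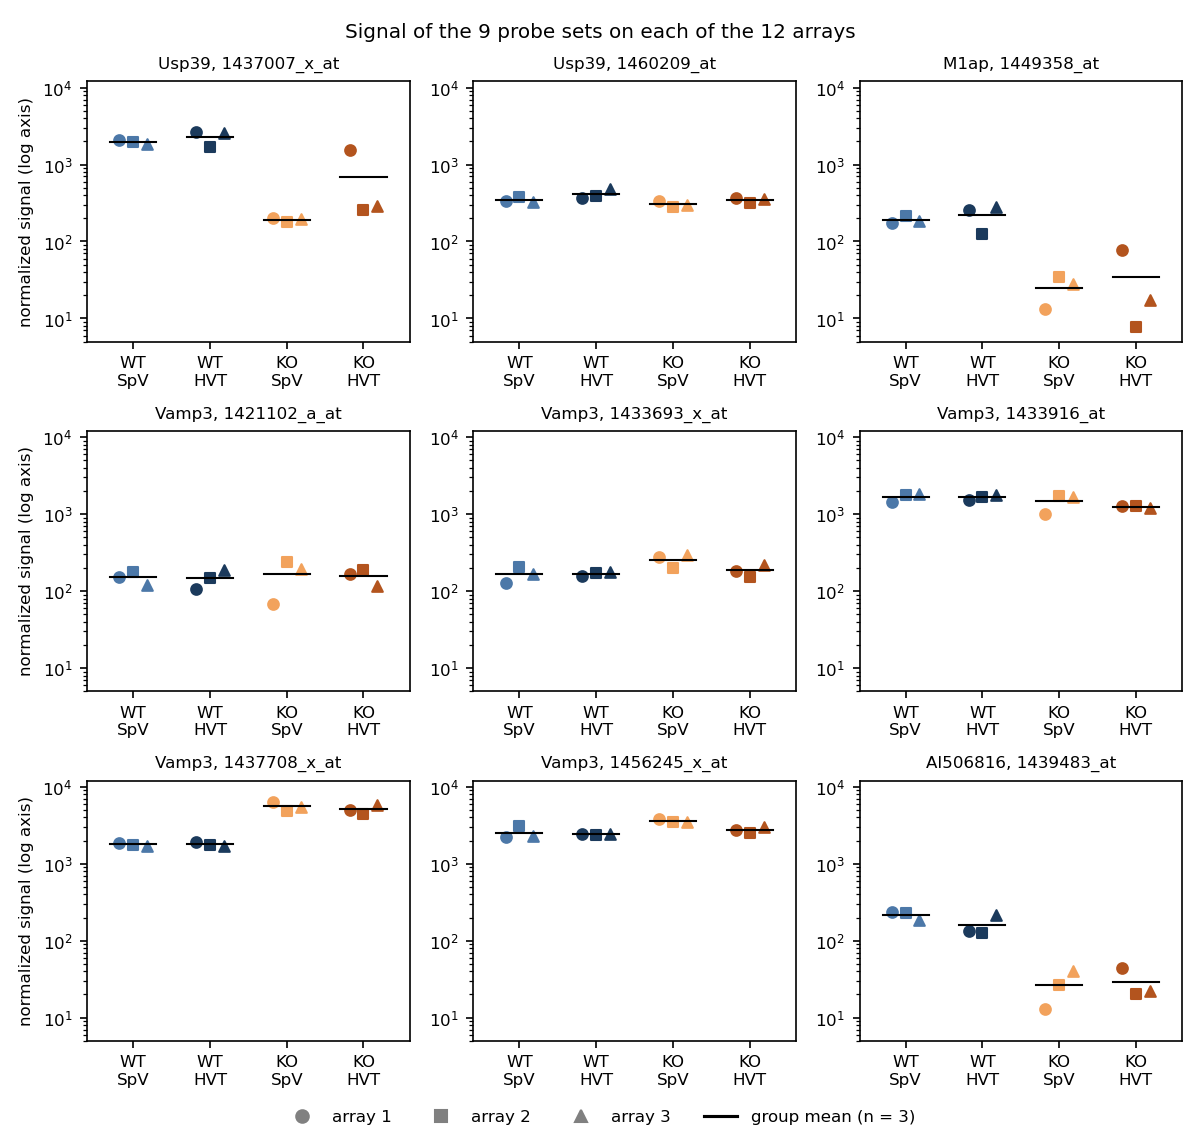
Normalized signal (log axis) of the 9 probe sets on each of the 12 arrays, by group, with a symbol for each array number and the group mean of 3 arrays as a line. Usp39 1437007_x_at, M1ap, AI506816 and Vamp3 1437708_x_at have no overlap between genotypes, the other 5 panels do, and KO HVT array 1 is at 1525.6 for Usp39 1437007_x_at.

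Usp39 showed the step on 1 of its 2 probe sets. On 1437007_x_at the WT SpV arrays had normalized signals of 2103, 1967 and 1825.6, and the WT HVT arrays 2671.8, 1705.4 and 2553.9. The KO SpV arrays had 200.7, 177.9 and 195.3, and the KO HVT arrays 1525.6, 253.6 and 292. Thus 5 of the 6 KO arrays were at 292 or less and KO HVT array 1 was just under the lowest WT array. The log2 difference between KO and WT was -3.26 ± 0.49 (SE, n = 3 arrays per group) in SpV lungs and -2.18 ± 0.49 in HVT lungs, or -2.72 ± 0.35 averaged. Without KO HVT array 1 it was -2.99 in HVT lungs.

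On 1460209_at, Usp39 had 332.7, 378.7 and 328.7 in WT SpV, 371.5, 389.8 and 474.7 in WT HVT, 334.6, 283.6 and 295.7 in KO SpV, and 370.8, 316.3 and 355.3 in KO HVT. The genotypes overlapped in SpV lungs and over all 12 arrays, while in HVT lungs the highest KO array was just under the lowest WT array. The averaged log2 difference was -0.20 ± 0.11, with a 95% interval of -0.448 to 0.0383. The 2 probe sets therefore differed by 2.51 in their genotype difference on the log2 scale. A comparison with other genes was chosen after these values were seen. Among 3420 genes with several probe sets tested, the median range between probe sets of a gene was 0.26, and Usp39 had the fourth largest range. For the 2246 genes with exactly 2 probe sets the median was 0.205. The rule chose Usp39 for a large genotype difference, which by itself makes a large range likely, so this rank supports nothing. The probe set with the step carries the suffix x_at, which Affymetrix gives to sets with probes that can also match other transcripts. The annotation cites a different transcript record for each of the 2 sets.

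M1ap had only a weak signal in these lungs. On 1449358_at, its single probe set, WT SpV arrays had 171.4, 211.4 and 183, and WT HVT arrays 258.5, 125.7 and 280.3. KO SpV arrays had 13.3, 34.2 and 28.1, and KO HVT arrays 77.8, 7.8 and 17.5. All 6 WT arrays and 0 of 6 KO arrays reached the minimum scaled signal of 100, so the probe set was tested only through the WT arrays, and its size depends on the pseudocount of 16. The log2 difference was -2.34 ± 0.47 in SpV lungs and -2.42 ± 0.47 in HVT lungs, and the averaged value of -2.38 ± 0.33 became -3.06 with a pseudocount of 1 and -1.53 with 64. KO HVT array 1 was again the highest of the KO arrays.

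Other genes of meiosis were mostly below the filter. Of 32 genes for recombination and synapsis, 20 were on the array and 5 were tested, with a median genotype difference of 0.16 against 0.01 over all 9333 genes tested. Tex15, which is needed for repair of meiotic breaks, fell by 0.72 ± 0.18 (adjusted p = 0.0475) and was the only 1 of the 5 called, where 3.46% of all genes were (1.92% lower and 1.54% higher). Of 15 germ cell markers, 13 were on the array and only the protamine Prm1 was tested, with a value of 0.62 ± 0.22 (adjusted p = 0.144). The summed signal of the 13 was 231 to 512 in WT and 291 to 585 in KO.

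AI506816 was measured by a single probe set, for which the annotation cites no transcript record. Whether the step is one of AI506816 RNA was not tested. On 1439483_at the WT SpV arrays had 235.4, 228.3 and 186.1, and the WT HVT arrays 135.3, 127.7 and 217.5. The KO SpV arrays had 12.8, 26.8 and 40.1, and the KO HVT arrays 44.1, 20.1 and 22.4. The lowest WT array was far above the highest KO array, but 0 of 6 KO arrays reached the minimum signal. The log2 difference was -2.50 ± 0.34 in SpV lungs and -1.98 ± 0.34 in HVT lungs, or -2.24 ± 0.24 averaged (-2.79 with a pseudocount of 1, -1.45 with 64).

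Vamp3 was the member with a step to higher signal in KO, and again the step was on 1 probe set alone. That set, 1437708_x_at, carries the suffix x_at, as do 1456245_x_at and 1433693_x_at. The annotation cites no transcript record for these, but cites one for each of the other Vamp3 sets, 1433916_at and 1421102_a_at. Whether the step is one of Vamp3 RNA was not tested. On 1437708_x_at the WT SpV arrays had 1887.6, 1774.4 and 1711.8 and the WT HVT arrays 1923.7, 1741.9 and 1708.2. The KO SpV arrays had 6301.8, 4894.1 and 5454 and the KO HVT arrays 5068.1, 4480.9 and 5851.4. Within each genotype the arrays differed little, the highest WT array being 1.13 times the lowest and the highest KO array 1.41 times the lowest. The log2 difference was 1.62 ± 0.14 in SpV lungs, 1.5 ± 0.14 in HVT lungs and 1.56 ± 0.10 averaged, a 2.95-fold difference. On the deposited values without scaling it was 0.91, where the median probe set had -0.60.

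The other 4 Vamp3 probe sets had genotypes that overlapped over the 12 arrays. On 1456245_x_at, which is also bright, WT arrays ranged from 2215.8 to 3128.9 (median 2401.4) and KO arrays from 2483.4 to 3808.1 (median 3214.5), an averaged log2 difference of 0.34 ± 0.10 (-0.36 without scaling). Within each breathing group its KO arrays were all above its WT arrays, at 3451.4 to 3808.1 against 2215.8 to 3128.9 in SpV lungs and 2483.4 to 2977.6 against 2370.7 to 2451.4 in HVT lungs. On 1433916_at, WT arrays ranged from 1420.5 to 1838.8 (median 1736) and KO arrays from 995.3 to 1745.2 (median 1264.8), a difference of -0.32 ± 0.14. In HVT lungs this set separated the genotypes the other way, with KO at 1215.2 to 1271.8 and WT at 1531.6 to 1777.7. The dimmer 1433693_x_at had 127.8 to 203 in WT and 153.7 to 294.4 in KO, a difference of 0.35 ± 0.16 (-0.22 without scaling). The set 1421102_a_at, whose annotation cites a RefSeq transcript of Vamp3, had 106.6 to 186 in WT and 67.1 to 236.7 in KO, a difference of 0.04 ± 0.26 (-0.38 without scaling). The dimmer 2 sets overlapped within each breathing group as well. The range of the genotype difference over the 5 sets was 1.88, the 11th largest of the 3420 genes, against a median range of 0.53 among the 140 genes with at least 5 probe sets. The choice of Vamp3 by its genotype difference likewise makes a large range likely, so this rank supports nothing.

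**Figure D2:**
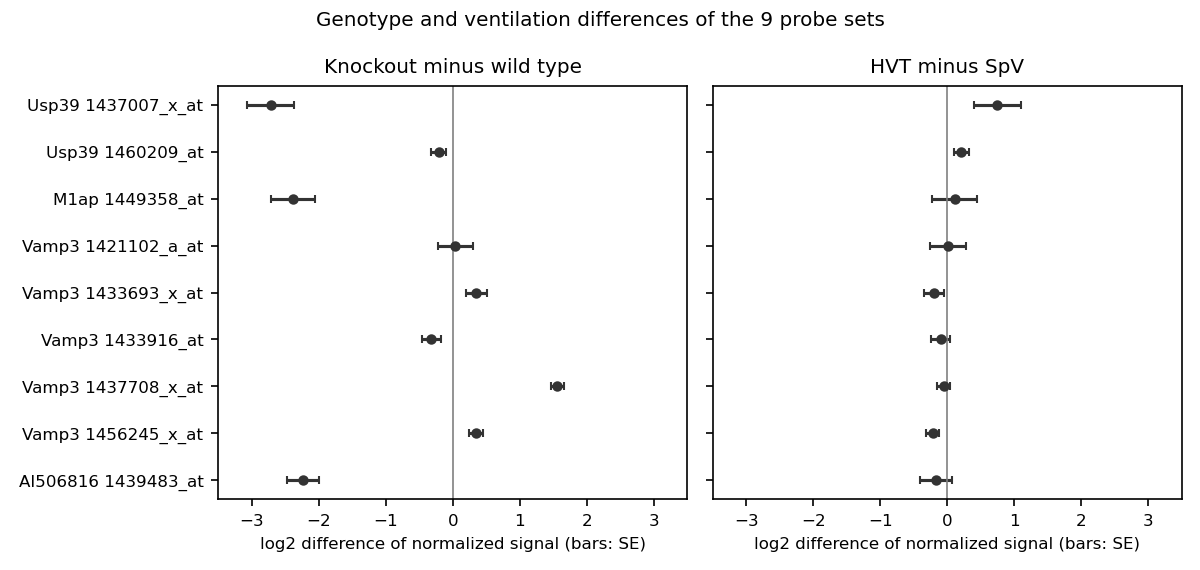
Log2 differences of normalized signal (points) with their standard errors (bars) for the 9 probe sets, for KO minus WT averaged over breathing on the left and HVT minus SpV averaged over genotypes on the right. Probe sets of the same gene lie far apart on the left, at -2.72 and -0.20 for Usp39 and from -0.32 to 1.56 for Vamp3.

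The RNAs of genes for partners and relatives of Usp39 and Vamp3 held 0 genotype calls, where 3.46% of all genes were called. In lists as short as these that share makes few calls, so 0 says little about them. Of 19 other tri-snRNP proteins tested, 14 were higher and 5 lower in KO at a median of 0.05, with values from -0.33 to 0.28 and 0 called. The members with the smallest p were Lsm4 at 0.19 ± 0.12 (adjusted p = 0.412) and Lsm2 at -0.33 ± 0.22 (adjusted p = 0.442), both subunits of a ring that binds U6 RNA. Of 31 other ubiquitin-specific peptidases, 22 were higher at a median of 0.08, with 0 called, and Usp45 and Usp2 had values of -0.60 ± 0.20 (adjusted p = 0.132) and 0.78 ± 0.27 (adjusted p = 0.133). Of 9 related SNAREs, 7 were lower at a median of -0.26 and 0 were called. Vamp7 of late endosomes had -0.30 ± 0.12 (adjusted p = 0.185) and Vamp8 -0.20 ± 0.10 (adjusted p = 0.289). Of 30 partner SNAREs and recycling endosome proteins, 24 were lower at a median of -0.17 and 0 were called. Ehd4, an endosomal ATPase, had -0.64 ± 0.18 (adjusted p = 0.0826) and the early endosome GTPase Rab5a -0.44 ± 0.14 (adjusted p = 0.108). The medians were 0.01 over all genes. In limma, the number of genes at an unadjusted p under 0.05 was 0 of the 19 tri-snRNP proteins, 4 of the 31 peptidases, 1 of the 9 related SNAREs and 10 of the 30 partners, where 21.1% of all genes had one.

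The averaged ventilation difference is the contrast that the choice of members did not use directly. The rule asked for a knockout difference regardless of ventilation, which may favour probe sets that ventilation moved little. Averaged over genotypes, 0 of the 9 probe sets passed in limma, and 0 had an unadjusted p under 0.05, which 13.2% of all probe sets had. Over all probe sets 0.126% were called (0.0883% higher after ventilation), 20 in number, and 972 without KO SpV array 1, again with 0 of the 9. Vamp3 1437708_x_at had a ventilation difference of -0.06 ± 0.10 (adjusted p = 0.853), with a 95% interval of -0.27 to 0.156. For AI506816 it was -0.17 ± 0.24 (interval -0.69 to 0.35, adjusted p = 0.807) and for M1ap 0.11 ± 0.33 (interval -0.617 to 0.833, adjusted p = 0.925), which became -0.18 without KO HVT array 1 and -0.00505 without KO SpV array 1. These intervals leave room for changes of over 1.5-fold in AI506816 and M1ap.

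Usp39 had higher values after ventilation on both probe sets without passing. On 1437007_x_at the difference was 0.74 ± 0.35 (interval -0.00989 to 1.5, adjusted p = 0.384) and was 0.34 without KO HVT array 1. On 1460209_at it was 0.21 ± 0.11 (adjusted p = 0.444). Two-sided exact permutations of the breathing labels within genotype, which cannot go below p = 0.005, gave an unadjusted exact p of 0.02 and 0.025 for them, and 0.06 to 0.975 for the other 7 probe sets. The exact values were computed for 9 probe sets only and are not adjusted. There is thus no share over all probe sets to set them against, and nothing is concluded from them. In Vamp3 the 4 sets without the step had ventilation differences from -0.22 ± 0.10 on 1456245_x_at (adjusted p = 0.387) to 0.01 ± 0.26 on 1421102_a_at (adjusted p = 0.992). The interaction between genotype and ventilation, which the rule touched on, is given without a test: 1.08 ± 0.70 for Usp39 1437007_x_at, -0.08 ± 0.67 for M1ap, 0.52 ± 0.48 for AI506816 and -0.11 ± 0.20 for Vamp3 1437708_x_at.

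Usp39 and M1ap lie on the same chromosome, 6, with 20 measured genes between them in the GRCm38.p6 annotation. Of those 20 genes, 5 were called for the averaged genotype difference, 25% against 3.46% of all genes and 5.53% of the 506 measured on that chromosome. Tcf7l1, a transcription factor of Wnt signalling, fell by 1.95 ± 0.32 (adjusted p = 0.00831), Ggcx, the vitamin K-dependent carboxylase, by 1.29 ± 0.23 (adjusted p = 0.0124), and the actin-capping protein Capg by 1.23 ± 0.28 (adjusted p = 0.036). Retsat, a retinol saturase, rose by 0.89 ± 0.21 (adjusted p = 0.0412), and Reg3g, an antimicrobial lectin, by 2.83 ± 0.56 (adjusted p = 0.0186). The count was 3 without WT SpV array 1 or 2, WT HVT array 1 or 3, or KO HVT array 1, and 2 without WT SpV array 3 or WT HVT array 2.

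The genes right beside the members did not share the step. Sftpb, next to Usp39, had -0.03 ± 0.10 (adjusted p = 0.911) and Tmem150a on its other side 0.16 ± 0.18 (adjusted p = 0.692). Of the 10 measured genes on each side of Usp39, 5 of 20 were called, the called ones being Chmp3 of the ESCRT machinery, which fell by 0.57 ± 0.12 (adjusted p = 0.0252), and Ggcx, Capg, Retsat and Tcf7l1. That count was 3 without WT SpV array 1, 2 or 3, WT HVT array 1, KO SpV array 3 or KO HVT array 2 or 3, and 2 without WT HVT array 2 or 3. Around M1ap, 2 of 20 were called, Reg3g and the glycan-trimming glucosidase Mogs, which rose by 0.55 ± 0.13 (adjusted p = 0.0399). The 10 genes from Usp39 towards M1ap and the 10 from M1ap towards Usp39 are the 20 between them, so the counts share genes. Of the called neighbours, only Chmp3 and Mogs lie outside that span. The M1ap count was 1 without WT SpV array 2, WT HVT array 1 or KO SpV or HVT array 2, 0 without WT SpV array 3, WT HVT array 2 or KO HVT array 1, and 3 without KO SpV array 1. The genes next to M1ap, Sema4f and Dok1, had 0.01 ± 0.15 (adjusted p = 0.982) and -0.21 ± 0.18 (adjusted p = 0.559).

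Around Vamp3 on chromosome 4 and AI506816 on chromosome 5, 0 of 20 neighbours were called in each case in limma (1 of 20 around AI506816 without KO SpV array 2). Next to Vamp3, the clock gene Per3 had -0.23 ± 0.38 (adjusted p = 0.798) and Dnajc11 0.04 ± 0.12 (adjusted p = 0.878). Next to AI506816, the splicing kinase Srpk2 had 0.09 ± 0.18 (adjusted p = 0.817) and the pseudouridine synthase Pus7 -0.14 ± 0.23 (adjusted p = 0.778).

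**Figure D3:**
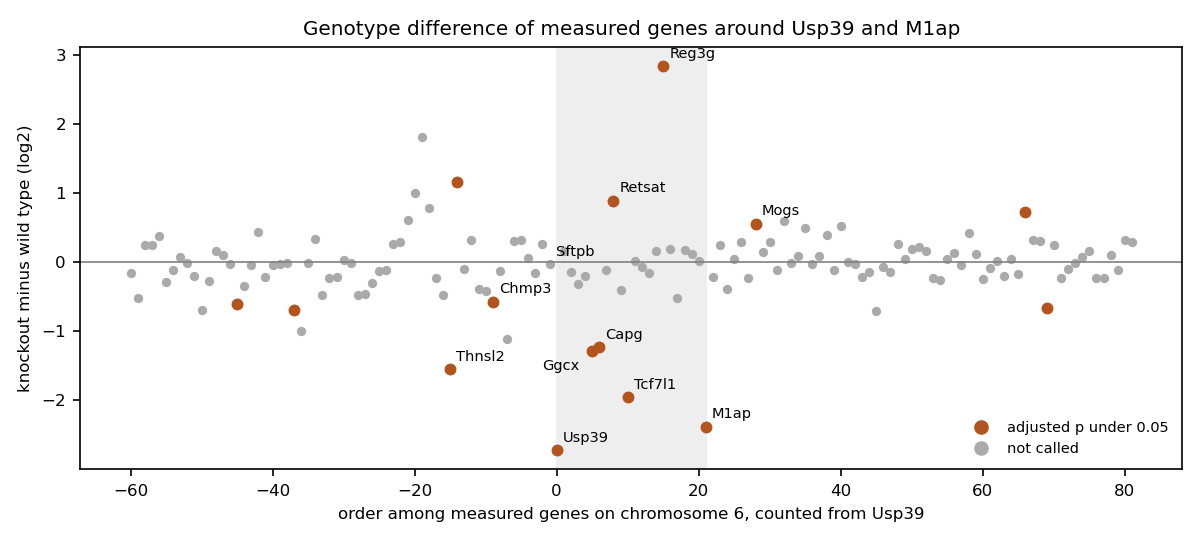
Log2 difference of normalized signal between KO and WT (averaged over breathing) for the measured genes around Usp39 and M1ap on chromosome 6, 1 probe set each, in their order counted from Usp39; the shaded span runs from Usp39 to M1ap. Between both, 5 of 20 genes are called (coloured), with Sftpb beside Usp39 near 0.

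KO HVT array 1 departed from the other KO arrays at Usp39 and M1ap. To place it, the mean log2 signal of the other 5 KO arrays was set to 0% and that of the 6 WT arrays to 100%. On this scale KO HVT array 1 lay at 85.4% for Usp39 1437007_x_at, at 54.5% for M1ap, at 25.9% for AI506816 and at 5.06% for Vamp3 1437708_x_at. M1ap and AI506816 reached the minimum signal on 0 KO arrays, so their positions rest on dim values. M1ap had 77.8 on KO HVT array 1 and 7.8 to 34.2 on the other KO arrays. Each of the other KO arrays, placed in the same way, lay between -34.4% and -3.1% for Usp39 and between -42.7% and 14.1% for M1ap. For Nfe2l2 the array lay at 8.08%. Without scaling the array lay at 61.9% for Usp39, 33.4% for M1ap and 39.6% for Vamp3.

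The same placing was applied to all probe sets whose genotypes stood at least 1 log2 unit apart without KO HVT array 1, a choice made after the values had been seen. There were 18, of which 4 lie on chromosome 6: Usp39, M1ap, Tcf7l1 at 78.3% and a probe set of Gng12, a G protein subunit, at 55.9%. With a pseudocount of 64 only 2 chromosome 6 sets had the gap. The 14 on other or unknown chromosomes, Nfe2l2, Aox1, Ces1g, Ces1f and 2 sets for Gstm1 among them, lay between -36.1% and 41.2%, the highest being the glutathione transferase Gsta3. For Tcf7l1 the array had 450.7, inside the WT range of 436.2 to 1084.7, with 81.6 to 167.4 on the other KO arrays. Gng12 on 1421947_at was higher in KO, at 1085.2 to 1488.8 on the other KO arrays, 380.6 to 516.3 in WT and 696.1 on KO HVT array 1. On its brighter probe set Gng12 had a genotype difference of -0.12.

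With a gap of 0.5 in place of 1 there were 7 probe sets on chromosome 6, and 6 of them lay at 54.5% to 85.4%, with Ggcx at 63.6% and Thnsl2, a threonine synthase-like enzyme, at 58.6%. The seventh, Reg3g, lay at -28.4%, and 37 sets elsewhere lay between -64.5% and 41.2%. Without KO SpV array 1 the chromosome 6 sets with a gap of 1 numbered 6, and Reg3g was the lowest of them at -22.3%. This is a placing of 1 array, with no test, and that array also had an actin ratio of 3.1 and a trimmed mean of 194. The KO HVT array 3 had 3.02 and 182 and lay at -3.1% for Usp39 and -15.3% for M1ap.

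**Figure D4:**
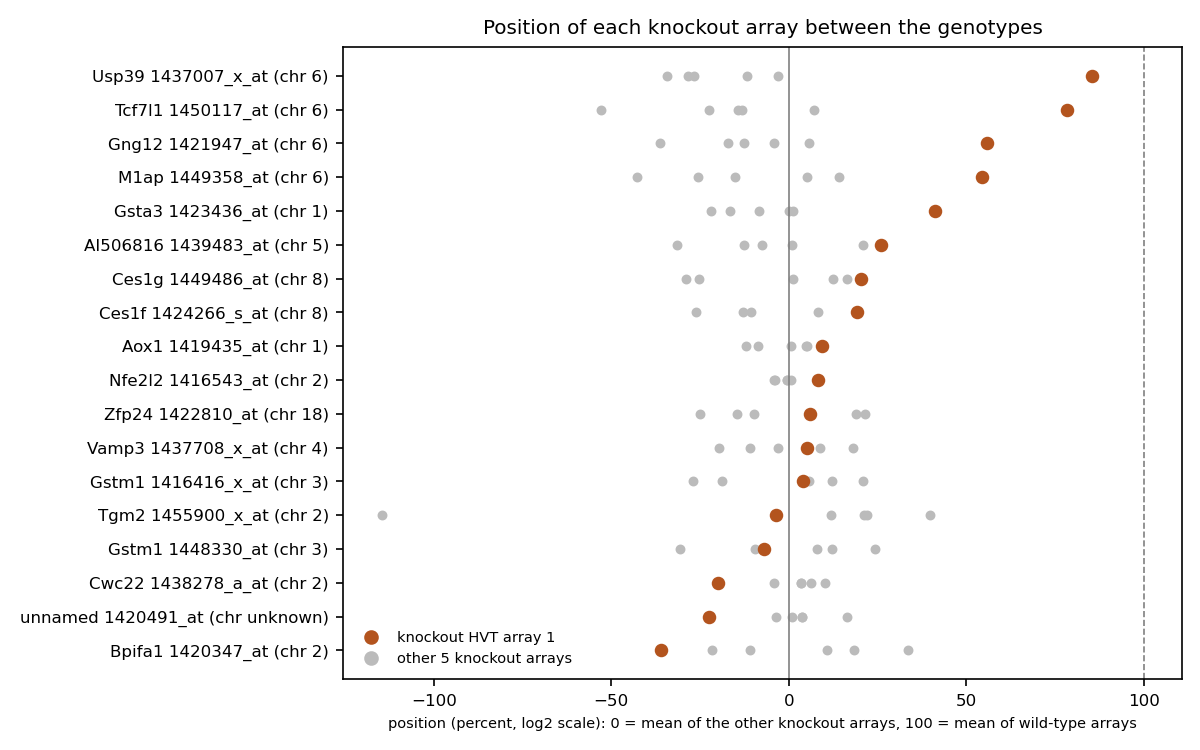
Position of each KO array between the genotypes, in percent on the log2 scale (0 is the mean of the other 5 KO arrays, 100 the mean of the 6 WT arrays), for the 18 probe sets with a gap of at least 1 without KO HVT array 1. KO HVT array 1 (coloured) is at 54.5 to 85.4 for the 4 sets of chromosome 6 and at 41.2 or less for the others. The choice of sets holds the other 5 KO arrays apart from WT, so only KO HVT array 1 was free to lie near 100. M1ap and AI506816 are dim on all KO arrays.

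Over the 12 arrays, the patterns most like each member were described by Pearson's r, which a shared genotype step raises by itself. For Usp39 1437007_x_at the closest were Tcf7l1 (r = 0.962), the unnamed 1423223_a_at (0.944), M1ap (0.942), Cr1l (0.94) and Gsta3 (0.939). For M1ap they were a ferritin light chain set shared by Ftl1 and Ftl1-ps2 (r = 0.969), Gsta3 (0.964), AI506816 (0.95), Usp39 (0.942) and 1423223_a_at (0.938). For AI506816 they were Nfe2l2 (r = 0.957), Aox1 (0.954), M1ap (0.95), Gsta3 (0.946) and Gstm1 (0.938), of which Aox1, Gsta3 and Gstm1 encode detoxifying enzymes. For Vamp3 1437708_x_at they were Zfp24 (r = 0.978), the unnamed 1420491_at (0.965), Nrd1 (0.947), Hdc (0.943) and Naf1 (0.939). All 5 likest patterns of Vamp3 had higher signal in KO, from 0.73 ± 0.10 for Naf1 to 2.47 ± 0.17 for Zfp24. Their choice by a high r with a set that steps up in KO fixes this direction.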

How the data were processed

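RNA of mouse lungs was measured on 12 arrays. The deposited values are linear signal intensities per probe set, made by the authors with GCOS 1.4 per the submitters' processing notes. The series' design text states a scaling to an average of 500, which the deposited trimmed means do not show, so each array was scaled here to a trimmed mean of 500 (2% off each end). Arrays were quantile normalized and log2(signal + 16) was taken, which understates differences of dim probe sets. The 15855 probe sets with a scaled signal of at least 100 on at least 3 arrays were fitted in limma 3.58.1 (R 4.3.3) with 4 group means, moderated variances with a trend (8 residual and 4.38 prior degrees of freedom), and Benjamini-Hochberg adjustment over all of them. Called means an adjusted p under 0.05. The script was tested on simulated data. For counts per gene, the brightest probe set stood for the gene.

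Errors of log2 differences are standard errors, and with 3 arrays per group the precision is limited. Gene names came from the platform annotation and gene order and promoters from RefSeq (GRCm38.p6). The build behind the annotation is not given in the sources used here. Members and lists were chosen with earlier results of these data known, and the patterns named as most alike are the 5 with the highest Pearson's r for each stepped probe set. Same-numbered arrays did not deviate together (mean correlations 0.0815, 0.117 and 0.00375), so numbers were not used as pairs. Alternatives covered scaling, pseudocount, filter, probe set choice, variance trend, replicate block, actin ratio and each array left out.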

Additional observations from a re-analysis of the deposited data

How the results depend on the processing

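Under the 22 alternatives that tested all 9 probe sets there were 0 ventilation calls, as for the 4 tested with 1 probe set per gene, and 187 of their 202 alternative ventilation values kept direction. The ventilation value of M1ap ranged from -0.18 to 0.314 with 1 array left out and was -0.292 with KO SpV array 1 and KO HVT array 1 both out, an alternative chosen after seeing the data. That of Vamp3 1421102_a_at ranged from -0.235 to 0.167 with 1 array left out and was -0.00624 with scaling only, -0.00242 with equal medians, -0.177 without scaling, -0.00332 with a pseudocount of 64, -0.109 with the actin ratio as covariate and -0.261 with both arrays out. Of 606 alternative genotype values of the members, 573 moved by less than the spread between replicates and 24 changed sign. These 24 belong to the Vamp3 sets without the step (16 on 1421102_a_at, 3 each on 1433693_x_at and 1456245_x_at, 2 on 1433916_at). Without scaling the averaged values were -0.217 on 1433693_x_at and -0.36 on 1456245_x_at. In SpV lungs 1433916_at was at 0.0347 without KO SpV array 1.

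The 518 genotype calls over all probe sets became 128 without scaling, 916 with the actin covariate and 206 to 875 with 1 array left out. With the replicate number as a block (replicate block) they were 695, and the 20 ventilation calls became 3. The ventilation calls were 8 with equal medians, 3 without scaling, 13 with a pseudocount of 1, 2 without the filter, 10 with 1 probe set per gene, 2 without the variance trend, 756 with the actin covariate, 786 with both arrays out and 0 to 972 with 1 array left out. Genes called between Usp39 and M1ap were 3 without the filter and 2 to 6 with 1 array left out. The 5 called neighbours of Usp39 became 3 without scaling, 2 without the filter and 8 with both arrays out. The 2 of M1ap became 1 with equal medians, without scaling, without the filter or with the replicate block. The lowest position of KO HVT array 1 among chromosome 6 sets was 33.4% without scaling, 76.4% with a pseudocount of 64 (over 2 sets in place of 4) and -22.3% to 56.5% with 1 array left out, and the highest elsewhere was 20.5% without scaling and 39.7% to 42.9% with 1 array left out. Without scaling Vamp3 1437708_x_at, which lacked the gap of 1 there, lay at 39.6%, above M1ap at 33.4%. The cause of these shifts was not tested. Signals of M1ap and AI506816 on KO arrays are too dim to give a level there.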
